A study of Mus musculus with 23 samples.

Results

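Pyramidal cells and somatostatin-positive interneurons of the mouse hippocampus were compared in wild-type animals, gene by gene. The comparison rests on 8 of the series' 23 RNA sequencing libraries, chosen by title and genotype label: 4 titled CamK, labelled as excitatory pyramidal cells, and 4 titled SST, labelled as somatostatin+ interneurons. All 8 are labelled wild type for SLM2, an RNA-binding splicing regulator encoded by Khdrbs3. The rest of the series holds 4 wild-type libraries of a second pyramidal population titled Grik, and 3 CamK, 4 Grik and 4 SST libraries from conditional SLM2 knockouts (cKO). The design text of the series names CA1 and CA3 excitatory cells and SST+ inhibitory cells. Driver lines, the age and sex of the animals, any allele that the wild-type controls carried, and the way cells or their RNA were isolated are not given in the sources used here. No label says whether replicates came from separate animals, so the p-values measure only the spread between these libraries, which may be technical.

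Pyramidal cells are the principal excitatory neurons of the hippocampus. They release glutamate, store it in vesicles through VGLUT1, and carry dense postsynaptic sites on spines where calcium entry through NMDA receptors acts on calmodulin and the kinase CaMKII. Somatostatin interneurons are born in the medial ganglionic eminence and depend on the transcription factor Lhx6. They make GABA with the enzymes GAD67 and GAD65, target pyramidal cell dendrites, and release peptides such as somatostatin and neuropeptide Y beside GABA.

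Levels are given as CPM, counts per 1000000 reads assigned to genes after TMM scaling. Differences are log2 fold changes of CamK minus SST, so that positive values mean higher in CamK and negative values higher in SST. An error after ± is the SD over the 4 libraries of a population. Values of single libraries are listed in the order of CamK replicates 2, 3, 4 and 5 and SST replicates 1, 2, 3 and 5. The 8 libraries had 88356237 to 112993538 reads in genes, and 20833 to 22419 genes had at least 1 read. A difference in CPM can come from fewer cells of a type or from less RNA per cell, and bulk libraries cannot tell these apart. SST replicate 5 stood apart in its sex-linked genes: Xist, the RNA of the inactive X chromosome, was at 25.7 CPM there and at 0.148 to 0.314 CPM in the other SST libraries. The Y-linked Ddx3y was at 47.8 CPM in that library and at 86.1 to 104.2 CPM in the other SST libraries. In CamK replicate 5, Xist was at 3.04 CPM and Ddx3y at 0.0219 CPM, against 47.2 to 49.2 CPM of Ddx3y in the other CamK libraries.

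The labels were first checked against marker genes. Slc17a7 encodes VGLUT1, the vesicular glutamate transporter of hippocampal pyramidal cells (chromosome 7 from 45163949 to 45176142 on the plus strand, GRCm38). Its level was 897, 855, 998 and 1069.7 CPM in the CamK libraries and 71.8, 121, 72.9 and 67.7 CPM in the SST libraries. The populations did not overlap, and SST replicate 2 was the highest of its group. The difference was 3.52 (SE 0.26, edgeR adjusted p 6.5e-10). Wfs1, an endoplasmic reticulum protein enriched in CA1 pyramidal cells (chromosome 5 from 36966104 to 36989205 on the minus strand), stood at 290.1, 333, 404 and 398 CPM in CamK and 20.5, 17.8, 18.1 and 41.3 CPM in SST. SST replicate 5 had more Wfs1 than the other SST libraries and still far less than any CamK library, and the difference was 3.87 (SE 0.33, edgeR adjusted p 7.6e-09), or 4.24 without that library. Gad1 encodes GAD67, which makes GABA from glutamate (chromosome 2 from 70553072 to 70602014 on the plus strand). It was at 55.4, 87.3, 31.2 and 80.6 CPM in CamK and 2588, 3087, 2837 and 2546 CPM in SST, with no overlap and a difference of -5.44 (SE 0.28, edgeR adjusted p 1.7e-12).

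Sst encodes the somatostatin precursor that gives the interneurons their name (chromosome 16 from 23889573 to 23890958 on the minus strand). Its level was 3.87, 6.84, 3.94 and 7.70 CPM in CamK and 1720.3, 159, 554 and 1557 CPM in SST. All SST libraries lay above all CamK libraries, but SST replicate 2 held far less Sst than replicates 1 and 5, and replicate 3 lay between. The difference was -7.48 (SE 0.65, edgeR adjusted p 1.12e-08), and -7.84 without SST replicate 2. In the 4 SST libraries labelled cKO, Sst ranged from 1009.8 to 2125 CPM. Npy, the precursor of neuropeptide Y, was even across the same libraries at 630.2, 769, 526 and 519.9 CPM, and highest in the replicate with the least Sst. Its CamK levels were 0.693, 1.16, 0.610 and 0.788 CPM.

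The sequence before the start of each of 4 genes is shown because these genes carry the contrast: a peptide pair of the interneurons, Sst and Npy, and the transporter Slc17a7 with the peptide gene Cck of the CamK libraries. Each line holds the 250 bases 5′ to 3′ before the start in RefSeq's table for GRCm38.p6: Sst from chr16:23890845-23891094 (minus strand), Npy from chr6:49822460-49822709 (plus strand), Slc17a7 from chr7:45163671-45163920 (plus strand) and Cck from chr9:121495695-121495944 (minus strand). Capitals mark matches, on either strand, to 5 motifs: the cAMP response element TGACGTCA, the E-box CAGATG that NeuroD factors bind, the homeodomain core TAATTA, the POU octamer ATGCAAAT and the TATA box TATAAA.
Sst: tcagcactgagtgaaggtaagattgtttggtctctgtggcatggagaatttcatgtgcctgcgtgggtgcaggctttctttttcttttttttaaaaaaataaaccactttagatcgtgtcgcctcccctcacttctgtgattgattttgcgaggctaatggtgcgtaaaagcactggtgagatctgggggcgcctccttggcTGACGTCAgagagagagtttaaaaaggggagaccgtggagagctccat
Npy: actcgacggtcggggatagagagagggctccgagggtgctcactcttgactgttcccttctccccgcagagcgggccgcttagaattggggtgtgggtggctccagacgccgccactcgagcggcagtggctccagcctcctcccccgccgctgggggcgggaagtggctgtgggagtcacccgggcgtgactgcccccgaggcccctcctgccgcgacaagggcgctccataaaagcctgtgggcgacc
Slc17a7: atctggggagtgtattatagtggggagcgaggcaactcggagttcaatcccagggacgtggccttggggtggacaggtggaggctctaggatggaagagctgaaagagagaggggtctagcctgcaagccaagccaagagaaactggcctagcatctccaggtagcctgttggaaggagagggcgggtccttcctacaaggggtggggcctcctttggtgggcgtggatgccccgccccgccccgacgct
Cck: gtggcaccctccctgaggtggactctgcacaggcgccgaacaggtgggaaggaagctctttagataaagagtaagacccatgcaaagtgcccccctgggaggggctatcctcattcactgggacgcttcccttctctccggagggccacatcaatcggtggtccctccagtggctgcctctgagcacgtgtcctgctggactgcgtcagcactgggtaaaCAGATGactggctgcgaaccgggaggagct
Sst held the cAMP response element at bases 48 to 41 before its start, which lies 114 bases inside the span of the gene in GENCODE, and Cck held the E-box CAGATG at bases 30 to 25. None of these letters stood in the Npy and Slc17a7 windows. The called sets come from the genes tested, of which 12870 had a promoter of this length. TGACGTCA stood in 2.55% of these and in 1.98% of all 19113 promoters, against 1.25% for genes more than 2-fold higher in CamK and 2.09% for those higher in SST. In the same order (tested, all, CamK, SST), the shares were 10.8, 13.1, 13.7 and 13.2% for CAGATG and 2.67, 4.38, 3.12 and 3.75% for TAATTA. For ATGCAAAT they were 1.24, 1.49, 1.69 and 1.44%, and for TATAAA 7.03, 11.8, 9.54 and 8.66%. A match describes the letters of the window and shows no binding.

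**Figure D1:**
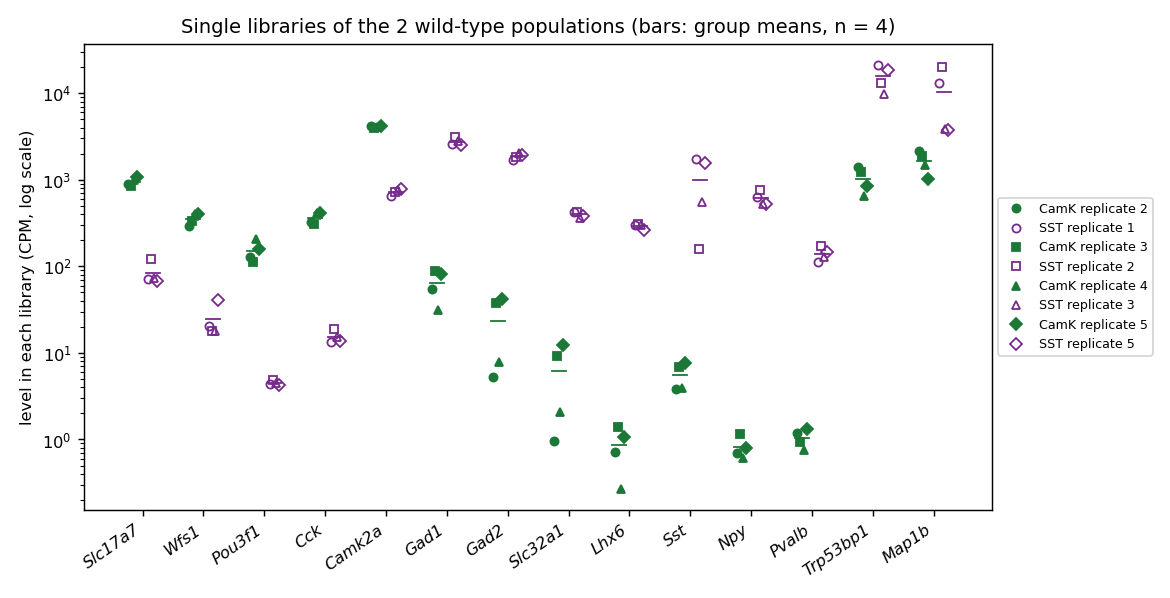
Levels of 14 genes in the 8 wild-type libraries, in CPM on a log axis. Each symbol is 1 library, filled green for CamK and open purple for SST, and short bars are means of 4 libraries. Sst spreads from 159 to 1720 CPM within SST, while Gad1, Gad2, Slc32a1, Lhx6 and Npy lie close together there.

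Across all genes, 11305 of 18823 (60.1%) passed the quasi-likelihood test of edgeR at a Benjamini-Hochberg adjusted p of 0.05, 5555 higher in CamK (29.5%) and 5750 higher in SST (30.5%). Because most genes differed at all, a second test asked for a change of more than 2-fold. It was passed by 3503 genes (18.6%), 1577 higher in CamK (8.38%) and 1926 higher in SST (10.2%). These shares are the background for every gene list below. The lists were chosen with earlier results of these data known, so their counts are descriptive and test no enrichment. The libraries of the populations did not overlap at 10150 genes (53.9%), and the median difference of all genes was -0.02. With a non-neuronal marker score as a covariate, the counts were 7093 at an adjusted p of 0.05 and 2246 for more than 2-fold, the former 3778 and 3315 and the latter 1284 and 962 higher in CamK and SST. The score, the centred mean log2 CPM of the astrocyte, oligodendrocyte, microglia and vascular lists, was -1.99 to -0.94 in CamK and 0.39 to 0.79 in SST, so it moved with the populations, and its part in the counts was not tested. With it in the fit, 13 genes named below were no longer past an adjusted p of 0.05: Calb2, Camk2d, Cbln4, Cnr1, Cox6b2, Cox8b, Dlg2, Gria3, Khdrbs2, Mpped1, Slc6a11, Slc6a13 and Zeb2. Of these, Khdrbs2 and Slc6a13 also changed sign. Leaving out SST replicate 5, where both Xist and Ddx3y were present, gave 10985 genes and 3452 for more than 2-fold, and leaving out CamK replicate 5 gave 10761 and 3344.

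**Figure D2:**
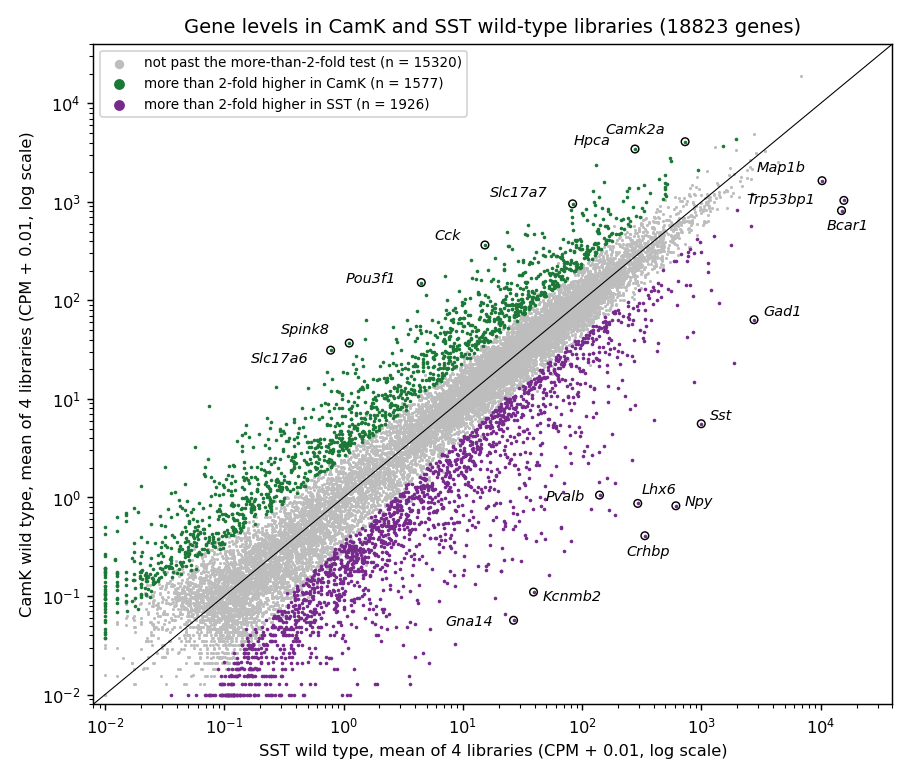
Mean level of each of 18823 genes in SST (x axis) and CamK (y axis) wild-type libraries, in CPM plus 0.01 on log axes, with the line of equal levels. Green points (1577 genes) and purple points (1926 genes) passed the test for more than 2-fold; the purple cloud reaches farther from the line than the green one.

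The strongest differences were not symmetric. Among protein-coding genes past the more-than-2-fold test with at least 10 CPM in the higher population, 23 were over 16-fold higher in CamK and 116 over 16-fold higher in SST. Over 64-fold, the numbers were 0 and 39. The libraries labelled cKO gave 14 and 105 genes over 16-fold and 0 and 35 over 64-fold. The level that markers kept in the other population differed the same way. All 12 pyramidal markers were higher in CamK, and their summed level was 8789 to 10441 CPM in CamK and 1335 to 1502 CPM in SST. The SST libraries thus held 15.0% of the CamK level of this list, for example 2.95% for Pou3f1 and 8.72% for Slc17a7 but 17.9% for Camk2a and 63.0% for Mpped1, whose difference was 0.67 and, with the replicate block, 0.53 and not past the test (edgeR adjusted p 0.125). Of 16 SST interneuron markers, 15 were higher in SST, all by more than 2-fold, with sums of 7708 to 8388 CPM in SST and 221 to 386 CPM in CamK, or 3.80% of the SST level. The exception was Nos1, neuronal nitric oxide synthase, at 153 CPM in CamK and 169 CPM in SST (-0.15, SE 0.12, edgeR adjusted p 0.307). The part of either residue in the size of the differences was not tested.

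Markers of other cells moved with the comparison as well. Non-neuronal markers were mostly higher in SST: 6 of 8 for astrocytes, 9 of 10 for the oligodendrocyte lineage, 5 of 8 for microglia and 9 of 10 for vessels and choroid plexus. Their summed levels were 79.5 to 104 CPM in CamK and 211 to 301 CPM in SST for astrocytes. For the oligodendrocyte lineage they were 159 to 243 CPM and 387 to 780.1 CPM. Microglia gave 8.02 to 12.6 CPM and 17.9 to 23.2 CPM, and vessels and choroid 13.2 to 40.0 CPM and 48.3 to 229 CPM. Gfap, the astrocyte filament protein, was at 4.12 CPM in CamK and 27.1 CPM in SST. The choroid plexus gene Ttr spread widely within SST (133, 2.03, 197 and 130.2 CPM) and did not pass the test. It made up most of the vessel and choroid sum in 3 of 4 SST libraries, and without it the sum was 2.95 to 5.14 CPM in CamK and 18.9 to 46.3 CPM in SST. Dentate granule cell markers went the other way, with 8 of 10 higher in CamK and 1, Stxbp6, higher in SST. C1ql2, a secreted complement-like protein of mossy fibre terminals, stood at 55.5, 50.8, 30.8 and 44.5 CPM in CamK and 2.50 to 3.99 CPM in SST. Prox1, the granule cell homeobox factor, stood at 139, 110.2, 49.2 and 71.4 CPM and 15.5 to 22.9 CPM. Both were highest in CamK replicate 2 and lowest in replicate 4, as was the summed list at 435 to 869 CPM in CamK and 409.6 to 441 CPM in SST. CA2 and CA3 markers were also mostly higher in CamK (8 of 12). Rgs14, a signalling regulator of CA2 cells, led them at 199.7 ± 30.3 CPM in CamK and 13.2 ± 1.47 CPM in SST. Whether these cells' RNA gave any of the differences below was not tested.

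**Figure D3:**
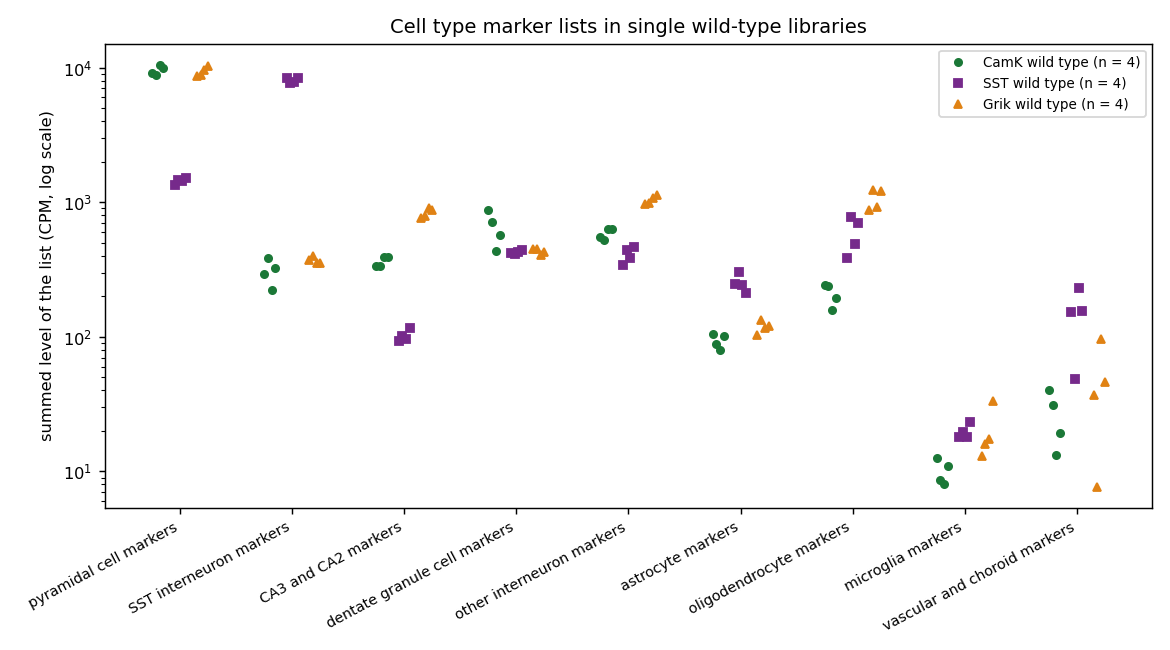
Summed level of 9 cell type marker lists in each wild-type library, in CPM on a log axis, for CamK (green circles), SST (purple squares) and Grik (orange triangles). Pyramidal markers sum to 8789 to 10441 CPM in CamK and 1335 to 1502 CPM in SST, and the 4 non-neuronal lists lie higher in SST than in CamK.

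Among the protein-coding genes with the largest differences toward CamK (mean of at least 10 CPM, no overlap) were Slc17a6, Pou3f1, Spink8, Sebox, Ccn3, Cck, Tshz2, Inka2 and Lefty1. Slc17a6, the gene of the second vesicular glutamate transporter VGLUT2, had 31.9, 29.2, 33.5 and 30.3 CPM in CamK and 0.563 to 1.31 CPM in SST (5.34, SE 0.42, edgeR adjusted p 1.2e-09). Pou3f1, a POU homeodomain factor, had 128, 114, 208 and 158 CPM and 4.21 to 4.84 CPM. The populations did not overlap for either gene, which the rule for naming them required. Spink8, a predicted serine protease inhibitor used as a CA1 marker, was at 36.9 ± 3.88 CPM in CamK and 1.11 ± 0.178 CPM in SST. Cck, the cholecystokinin precursor, was at 365 ± 55.6 CPM in CamK and 15.3 ± 2.45 CPM in SST (4.57, SE 0.19, edgeR adjusted p 8.33e-15). Ccn3, a secreted matricellular protein, stood at 177 CPM in CamK and 7.13 CPM in SST, Tshz2, a zinc finger homeobox factor, at 115 CPM in CamK and 4.91 CPM in SST, and Lefty1, a secreted antagonist of Nodal signalling, at 27.4 CPM in CamK and 1.27 CPM in SST. Sebox, a homeobox factor, had 13.0 CPM in CamK and 0.492 CPM in SST, and Inka2, an inhibitor of the kinase Pak4, 254 CPM in CamK and 11.8 CPM in SST. Across these 9 genes the differences ranged from 4.43 to 5.34.

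By the same rule, the genes named for SST over CamK had larger differences, of -7.97 to -9.71. Crhbp, the secreted protein that binds corticotropin-releasing hormone, had 321, 425, 269 and 328 CPM in SST and 0.363, 0.532, 0.373 and 0.328 CPM in CamK (-9.71, SE 0.30, edgeR adjusted p 1.92e-16). Npy, with the library values given above, had a difference of -9.55 (SE 0.28, edgeR adjusted p 1.28e-16). Gna14, a G protein alpha subunit of the Gq class, was at 26.6 ± 3.10 CPM in SST and 0.0467 ± 0.0430 CPM in CamK. The hydroxysteroid dehydrogenase gene Akr1c18 was at 22.4 ± 1.80 CPM in SST and 0.0554 ± 0.0466 CPM in CamK, and Kcnmb2, a beta subunit of the BK potassium channel, at 39.2 ± 2.12 CPM in SST and 0.0998 ± 0.0682 CPM in CamK. Lhx6, the LIM homeobox factor of interneurons from the medial ganglionic eminence, had 298, 310.5, 299 and 264 CPM in SST and 0.715, 1.38, 0.271 and 1.07 CPM in CamK. Its difference was -8.40 (SE 0.30, edgeR adjusted p 3.1e-15), and CamK replicate 4 had the least. Others were the kinase gene Stk32a at 52.4 CPM in SST and 0.154 CPM in CamK, the transcription factor Maf at 190.4 CPM in SST and 0.648 CPM in CamK and the cortistatin gene Cort at 70.3 CPM in SST and 0.279 CPM in CamK. Mean CamK levels of these 9 genes lay below 1 CPM, at 0.0467 to 0.861 CPM.

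Among the genes past the more-than-2-fold test, those with the highest CPM in CamK included 4 genes of calcium signalling. CPM is a share of reads and grows with transcript length, so this order is one of reads. The first 5 were Ncdn, the neurochondrin gene (4382 ± 181 CPM in CamK and 1948 ± 185 CPM in SST), Camk2a, the alpha subunit of CaMKII (4077 ± 105 CPM in CamK and 731 ± 59.1 CPM in SST), and Calm2, a calmodulin gene (3705 ± 375 CPM in CamK and 1506 ± 206 CPM in SST). Hpca, the calcium sensor hippocalcin, followed with 3437 ± 662 CPM in CamK and 278 ± 19.0 CPM in SST, and Ppp3ca, the catalytic subunit of calcineurin, with 2809 ± 194 CPM in CamK and 542 ± 84.5 CPM in SST. In SST the same rule gave Trp53bp1, Bcar1, Map1b, Gad1 and Zwint. Trp53bp1, a DNA damage response protein, had 21109, 13247, 9694 and 18582 CPM in SST and 1411, 1226, 649 and 851 CPM in CamK. Bcar1, a focal adhesion scaffold, had 21023, 17459, 7246 and 14107 CPM and 1058, 1018, 603 and 583 CPM. Map1b, a microtubule-associated protein, had 13232, 20187, 3897 and 3790.1 CPM and 2174, 1901, 1474 and 1008 CPM. These 3 genes had the highest mean CPM of all genes in SST and varied more than 2-fold within it, SST replicate 3 being low in each. In Grik the levels lay between those of CamK and SST for Trp53bp1 (2803 to 4654 CPM) and Bcar1 (1774 to 3182 CPM), while Map1b in Grik (2632 to 4621 CPM) overlapped SST. Their differences between CamK and SST were -3.92 (SE 0.40), -4.20 (SE 0.41) and -2.65 (SE 0.51). In the cKO libraries, Trp53bp1 (-2.37) and Bcar1 (-2.70) passed the test as well. Map1b did not pass there (-0.87, edgeR adjusted p 0.17), its SST levels of 1425 to 6326 CPM overlapping the CamK levels of 1533 to 2560.3 CPM. Zwint, a kinetochore protein that neurons also express, had 1192 ± 100.2 CPM in CamK and 2638 ± 158 CPM in SST. The gene with the highest mean CPM in CamK was the noncoding Gm42418, at 18904 CPM on average and 6814 CPM in SST.

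**Figure D4:**
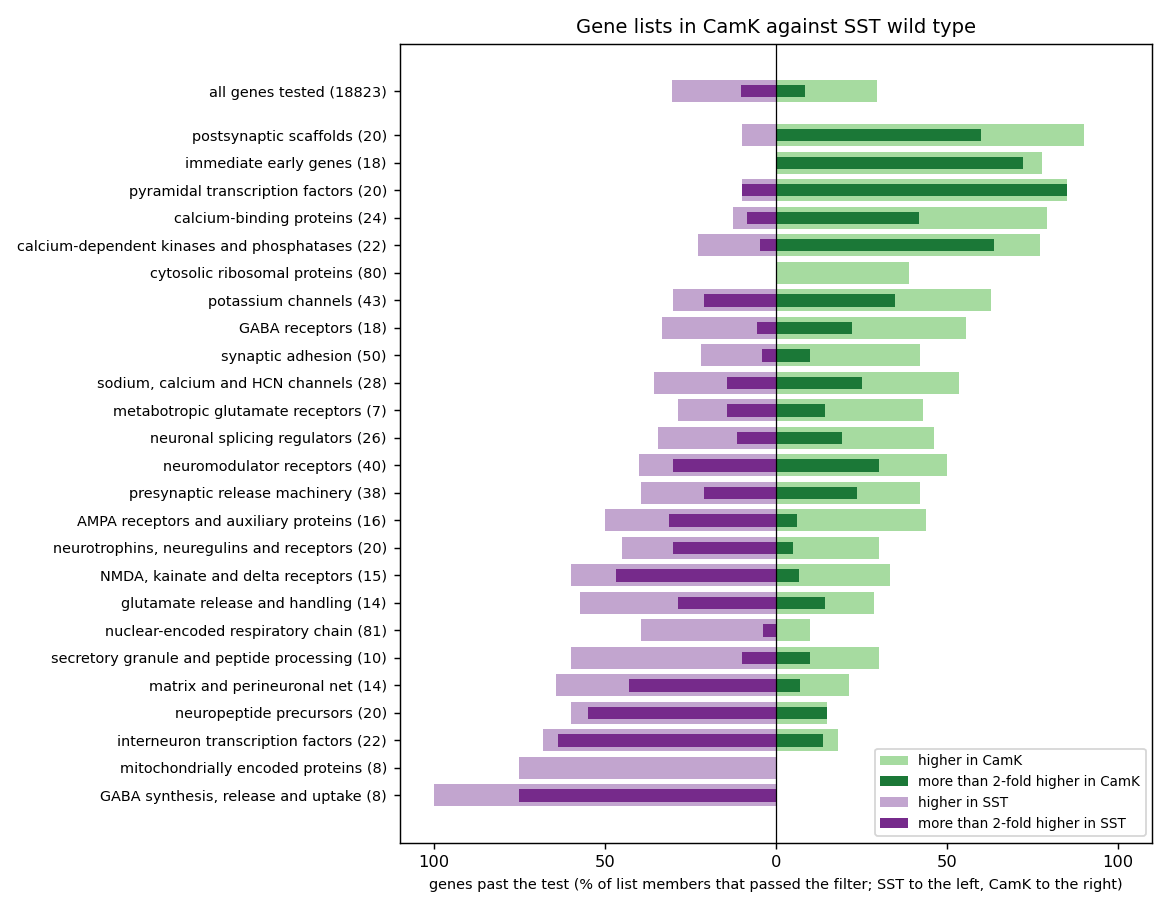
Share of each gene list past the tests, in percent of the members that passed the filter on low counts (their number in brackets), higher in SST to the left and higher in CamK to the right. Pale bars show an adjusted p of 0.05 and dark bars more than 2-fold; the top row gives all 18823 genes, 29.5% to the right and 30.5% to the left.

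Genes for making, storing and clearing GABA were higher in SST: all 8 measured genes passed, 6 by more than 2-fold, with a median difference of -4.33. Gad2, the gene of GAD65, stood at 1712, 1812, 2064 and 1957 CPM in SST and 5.33, 37.5, 7.94 and 42.0 CPM in CamK. Slc32a1, which encodes the vesicular GABA transporter, stood at 419.6, 428, 360.5 and 384 CPM and 0.969, 9.31, 2.09 and 12.3 CPM. Within CamK both were higher in replicates 3 and 5 than in replicates 2 and 4, and no CamK library reached an SST library. Abat, which breaks GABA down, was at 1197 CPM in SST and 128 CPM in CamK, and Aldh5a1, the next enzyme of that pathway, at 267 CPM in SST and 64.0 CPM in CamK. The genes of 2 other GABA transporters were low and passed only the test for any change, Slc6a11 at 24.2 CPM in SST and 16.3 CPM in CamK and Slc6a13 at 0.627 CPM in SST and 0.186 CPM in CamK. With the non-neuronal covariate neither passed: Slc6a11 was at -0.26 (edgeR adjusted p 0.407) and Slc6a13 turned to 1.01 (edgeR adjusted p 0.277).

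Genes of glutamate release and handling split. Of 14, 4 were higher in CamK and 8 in SST, with a median of -0.49. The vesicular transporters Slc17a7 and Slc17a6 and, by a smaller step, the neuronal uptake transporter Slc1a1 (0.33, SE 0.09, edgeR adjusted p 0.00302) were higher in CamK. The third vesicular transporter, VGLUT3, went the other way: its gene Slc17a8 had 15.0, 20.2, 17.4 and 9.75 CPM in SST and 0.113 to 0.252 CPM in CamK (-6.47, SE 0.32, edgeR adjusted p 2.6e-14). The amino acid transporters Slc38a1 (297 CPM in SST and 94.9 CPM in CamK) and Slc1a4 (69.5 CPM in SST and 21.6 CPM in CamK) and the glutamine synthetase gene Glul (291 CPM in SST and 87.7 CPM in CamK) were more than 2-fold higher in SST. Glul is mainly an astrocyte gene, and the astrocyte sums given above were also higher in SST, but the part of astrocyte RNA in its level was not tested. Slc1a2, the astrocytic transporter GLT-1, was at 174 CPM in CamK and 124 CPM in SST and did not pass (0.50, SE 0.26, edgeR adjusted p 0.114), except without SST replicate 2 (0.78).

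Transcription factors of both lineages separated the populations. Of 20 factors of the pyramidal lineage, 17 were higher in CamK, all by more than 2-fold, and the median difference was 2.98. After Pou3f1 came the bHLH factor Neurod6 (490.5 ± 88.5 CPM in CamK and 23.6 ± 7.20 CPM in SST), the T-box factor Tbr1 (77.5 ± 11.6 CPM in CamK and 4.12 ± 0.478 CPM in SST) and the zinc finger factor Fezf2 (63.1 ± 6.39 CPM in CamK and 3.39 ± 0.697 CPM in SST). Zbtb18, a transcriptional repressor needed in cortical development, was at 819.7 ± 71.4 CPM in CamK and 81.0 ± 8.59 CPM in SST. Bcl11b, also known as CTIP2, was at 259 CPM in CamK and 31.7 CPM in SST, and the mineralocorticoid receptor gene Nr3c2 at 317 CPM in CamK and 53.0 CPM in SST. The homeobox genes Cux2 (36.1 CPM in CamK and 203 CPM in SST, -2.49, SE 0.22, edgeR adjusted p 4.9e-09) and Cux1 (39.1 CPM in CamK and 101 CPM in SST) were higher in SST instead. Mef2c, an activity-regulated factor, did not pass at 274 CPM in CamK and 312 CPM in SST.

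Of 22 interneuron factors, 15 were higher in SST, 14 by more than 2-fold, with a median of -4.90. Npas1, a bHLH-PAS factor, was at 80.7 ± 11.7 CPM in SST and 0.350 ± 0.162 CPM in CamK and Sox6 at 48.0 ± 12.3 CPM in SST and 0.749 ± 0.207 CPM in CamK. The distal-less genes moved together: Dlx1 had 179 CPM in SST and 4.38 CPM in CamK, Dlx2 44.9 CPM in SST and 0.818 CPM in CamK, Dlx5 29.4 CPM in SST and 0.571 CPM in CamK and Dlx6 35.7 CPM in SST and 1.56 CPM in CamK. Satb1, a chromatin factor of maturing somatostatin cells, was higher in SST by less, at 364 ± 37.3 CPM in SST and 106 ± 1.85 CPM in CamK (-1.79, SE 0.08, edgeR adjusted p 5.95e-16). Of the list, 4 genes were higher in CamK: Etv1 (156 CPM in CamK and 19.7 CPM in SST), Prox1, Meis2 (103 CPM in CamK and 26.1 CPM in SST) and Zeb2 (364 CPM in CamK and 236 CPM in SST). Prox1 also marks granule cells, for which 8 of 10 markers were higher in CamK, but the part of granule cell RNA in its level was not tested.

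Of 20 neuropeptide-related genes measured, 12 were higher in SST, 11 of them by more than 2-fold, and 3 in CamK (5 with the non-neuronal covariate, 6 in limma-voom and 6 without SST replicate 5). Without Crhbp and Nxph1, which are no peptide precursors, 10 of 18 were higher in SST, 9 by more than 2-fold. Below Crhbp, Npy, Cort and Sst came Tac1, the substance P precursor (41.1 ± 17.6 CPM in SST and 0.353 ± 0.214 CPM in CamK), Nxph1, a secreted ligand of neurexins (264 ± 26.1 CPM in SST and 2.41 ± 1.69 CPM in CamK), and the corticotropin-releasing hormone gene Crh (10.1 ± 1.41 CPM in SST and 0.152 ± 0.0642 CPM in CamK). Pnoc, the nociceptin precursor, had 44.4 CPM in SST and 1.01 CPM in CamK. Vgf, a secreted granule peptide, differed less, at 339 CPM in SST and 129 CPM in CamK (-1.39, SE 0.16, edgeR adjusted p 7.19e-08). The CamK set was Cck, Adcyap1, the PACAP precursor (5.81 ± 0.336 CPM in CamK and 0.372 ± 0.106 CPM in SST), and Grp, the gastrin-releasing peptide gene (21.7 ± 3.26 CPM in CamK and 2.02 ± 0.428 CPM in SST). The opioid precursors Penk (28.8 CPM in CamK and 20.3 CPM in SST) and Pdyn (8.39 CPM in CamK and 6.31 CPM in SST) did not pass, though both did without SST replicate 5 (0.88 and 1.46) and Penk with the replicate block (0.57). Vip was low in both at 0.348 CPM in CamK and 0.610 CPM in SST. Of 10 granule and processing genes, 6 were higher in SST and 3 in CamK. The granin Chga was at 199 CPM in SST and 79.6 CPM in CamK, the proprotein convertase Pcsk2 at 278 CPM in CamK and 64.9 CPM in SST and the granin Chgb at 474 CPM in CamK and 229 CPM in SST.

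Of 12 markers of further interneuron classes, 7 were higher in SST (5 by more than 2-fold), 3 in CamK and 2 did not pass. The summed level of the list lay the other way, at 528 to 637 CPM in CamK and 341 to 463 CPM in SST. Cck, a member of the list, made up most of the CamK sum on average at the level given above, but little of the SST sum. The direction of the sum thus leans on this gene, and the sum without it was not computed. Pvalb, the calcium buffer of fast-spiking basket cells, had 114, 172, 128 and 146 CPM in SST and 1.20, 0.930, 0.745 and 1.31 CPM in CamK, with no overlap (-7.06, SE 0.26, edgeR adjusted p 2.17e-15). Htr3a, the ionotropic serotonin receptor of another interneuron class, was at 10.8 CPM in SST and 0.456 CPM in CamK, and Ndnf, of neurogliaform cells, at 13.5 CPM in SST and 1.26 CPM in CamK. Lamp5 (41.7 CPM in CamK and 9.18 CPM in SST) and Kit (64.7 CPM in CamK and 9.19 CPM in SST) were more than 2-fold higher in CamK, as was Cck. The cannabinoid receptor gene Cnr1 was at 65.7 CPM in CamK and 95.1 CPM in SST (-0.53, SE 0.13, edgeR adjusted p 0.00126).

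Calcium signalling genes were the opposite case, and mostly higher in CamK. Of 24 calcium-binding proteins, 19 were higher in CamK, 10 by more than 2-fold, with a median of 0.97. Nrgn, the calmodulin reservoir neurogranin, had 2065, 2089, 2778 and 2499 CPM in CamK and 129, 134, 123 and 141 CPM in SST (4.16, SE 0.18, edgeR adjusted p 1.48e-14). Hpca had 2747 to 4143 CPM and 258 to 302 CPM (3.63, SE 0.13, edgeR adjusted p 5.21e-17). The potassium channel-interacting proteins diverged: Kcnip3 (162 CPM in CamK and 14.2 CPM in SST), Kcnip4 (115 CPM in CamK and 15.3 CPM in SST) and Kcnip2 (205 CPM in CamK and 51.2 CPM in SST) were higher in CamK, whereas Kcnip1 was higher in SST at 80.8 CPM in SST and 7.76 CPM in CamK (-3.38, SE 0.18, edgeR adjusted p 2.82e-13). The buffers Pvalb and Calb2 were also higher in SST. Calb1, calbindin, stood at 252, 221, 162 and 178 CPM in CamK and 205, 233, 232 and 343 CPM in SST, overlapped and did not pass (-0.32, SE 0.14, edgeR adjusted p 0.0626), except without CamK replicate 2 (-0.43) or SST replicate 1 (-0.41).

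Of 22 calcium-dependent kinases, phosphatases and their partners, 17 were higher in CamK, 14 by more than 2-fold, and 5 in SST (median 1.67). Rasgrp1, a calcium-regulated exchange factor for Ras, led at 1302 ± 219.9 CPM in CamK and 122 ± 15.7 CPM in SST (3.41, SE 0.13, edgeR adjusted p 1.88e-16). The CaMKII genes were graded: Camk2a differed by 2.48 (SE 0.08), Camk2b by 1.92 (SE 0.06), Camk2d by 0.45 (SE 0.15) and Camk2g by -0.19 (SE 0.07). The calls of the last pair rested on single libraries: Camk2d was not past the test without CamK replicate 3 (0.29), SST replicate 1 (0.38) or SST replicate 2 (0.37), nor Camk2g without CamK replicate 3 (-0.16) or 4 (-0.18) or SST replicate 1 (-0.16) or 3 (-0.16). Per kilobase of annotated exon, Camk2a was at 546 CPM in CamK and 97.9 CPM in SST and Camk2b at 205 and 54.2 CPM. Camkv, a kinase-like protein of spines, was at 1285 CPM in CamK and 236 CPM in SST and Camkk1 at 365 CPM in CamK and 88.7 CPM in SST. Rasgrf2, another Ras exchange factor, was more than 2-fold higher in SST at 337 ± 29.7 CPM in SST and 79.4 ± 16.4 CPM in CamK (-2.08, SE 0.14, edgeR adjusted p 6.98e-12). Camk1 (86.1 CPM in SST and 39.4 CPM in CamK) and Camk1g (173 CPM in SST and 83.4 CPM in CamK) were higher in SST too.

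Scaffolds of the excitatory postsynaptic density were higher in CamK for 18 of 20 genes, 12 of them by more than 2-fold, with a median of 1.31. Baiap2, the actin regulator IRSp53, had 495, 498, 486 and 423 CPM in CamK and 43.0, 37.2, 38.2 and 41.1 CPM in SST (3.58, SE 0.13, edgeR adjusted p 1.44e-16). Ddn, the dendritic protein dendrin, had 1373 ± 30.0 CPM in CamK and 246 ± 13.1 CPM in SST, and Icam5, a dendritic adhesion protein, 246 ± 17.6 CPM in CamK and 32.0 ± 4.52 CPM in SST. Dlg4, the gene of PSD-95, was at 1351 CPM in CamK and 495 CPM in SST (1.45, SE 0.07, edgeR adjusted p 8.66e-15). Homer1 (241 CPM in CamK and 70.2 CPM in SST) and Homer3 (45.2 CPM in CamK and 7.01 CPM in SST) were also higher in CamK. Dlgap2 (-0.51, SE 0.11, edgeR adjusted p 0.000437) and Dlg2 (-0.25, SE 0.10, edgeR adjusted p 0.0304) were slightly higher in SST, and Dlg2 was not past the test without CamK replicate 4 (-0.23) or 5 (-0.18) or SST replicate 3 (-0.19) or 5 (-0.21).

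Of 16 AMPA receptor and auxiliary genes, 7 were higher in CamK and 8 in SST, 1 and 5 of them by more than 2-fold. Gria2, whose edited subunit blocks calcium entry through the receptor, had 443, 406, 380.2 and 379 CPM in CamK and 139.8, 165, 155 and 180.4 CPM in SST (1.33, SE 0.10, edgeR adjusted p 5.77e-11). Gria4 had 26.7, 32.9, 20.5 and 26.3 CPM and 181, 225, 199 and 172 CPM, higher in SST without overlap (-2.87, SE 0.12, edgeR adjusted p 3.22e-16). Per kilobase of annotated exon, all isoforms joined, the level in CamK was 139 CPM for Gria1, 25.9 for Gria2, 11.9 for Gria3 and 4.22 for Gria4, and in SST 225, 10.3, 17.1 and 30.9 CPM. On that scale Gria1 was the highest of the 4 in both populations, and Gria2 and Gria4 changed places. Gria1 (-0.70, SE 0.09, edgeR adjusted p 4.53e-07) and Gria3 (-0.51, SE 0.09, edgeR adjusted p 2.49e-05) were moderately higher in SST. Of the auxiliary proteins, Cacng4 (60.6 ± 9.47 CPM in SST and 2.06 ± 0.909 CPM in CamK, -4.88, SE 0.26, edgeR adjusted p 1.14e-12) and stargazin, Cacng2 (138 CPM in SST and 43.2 CPM in CamK), were higher in SST, and Cnih2 (333 CPM in CamK and 175 CPM in SST) and Gsg1l (31.4 CPM in CamK and 15.0 CPM in SST) in CamK.

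NMDA, kainate and delta receptor genes showed 5 of 15 higher in CamK and 9 in SST, and Grin3b did not pass the filter. The obligatory NMDA subunit Grin1 stood at 324 CPM in CamK and 274 CPM in SST and did not pass (0.24, SE 0.11, edgeR adjusted p 0.0501). It passed with the replicate block (0.26) and without CamK replicate 2 (0.30) or SST replicate 2 (0.31). Its partners split: Grin2a (239.7 ± 25.7 CPM in CamK and 85.6 ± 14.9 CPM in SST) and Grin2b (684 ± 96.5 CPM in CamK and 345 ± 81.5 CPM in SST) were higher in CamK. Grin2d was higher in SST, with 42.9, 42.7, 40.5 and 41.2 CPM against 1.70, 2.63, 2.09 and 2.71 CPM in CamK (-4.20, SE 0.16, edgeR adjusted p 8.64e-17), as was Grin3a at 169 ± 18.5 CPM in SST and 28.8 ± 1.45 CPM in CamK. Among kainate receptors Grik1 had 46.8, 58.4, 56.2 and 57.2 CPM in SST and 1.12, 2.05, 1.55 and 1.99 CPM in CamK (-5.02, SE 0.18, edgeR adjusted p 8.04e-17), and Grik3 had 172 CPM in SST and 32.0 CPM in CamK. Grik4 (30.3 CPM in CamK and 14.7 CPM in SST) was higher in CamK, and the auxiliary Neto1 (296 CPM in SST and 79.0 CPM in CamK) in SST. Among 7 metabotropic receptors, Grm2 was more than 2-fold higher in CamK at 61.0 ± 8.19 CPM in CamK and 6.14 ± 0.612 CPM in SST.

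GABA receptor genes leaned to CamK, with 10 of 18 higher there and 6 in SST, or 3 with the non-neuronal covariate (median 0.41). Gabra5, the subunit of extrasynaptic receptors in the hippocampus, had 212, 207, 268 and 251 CPM in CamK and 18.2, 25.3, 22.7 and 21.9 CPM in SST (3.41, SE 0.15, edgeR adjusted p 5.91e-15). Gabra2 (103 CPM in CamK and 31.2 CPM in SST) and Gabra4 (92.5 CPM in CamK and 30.8 CPM in SST) were also more than 2-fold higher in CamK. Gabra3 (110.2 CPM in SST and 51.6 CPM in CamK) was higher in SST, and Gabrg1 by most, at 23.3 ± 3.07 CPM in SST and 3.84 ± 0.949 CPM in CamK.

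**Figure D5:**
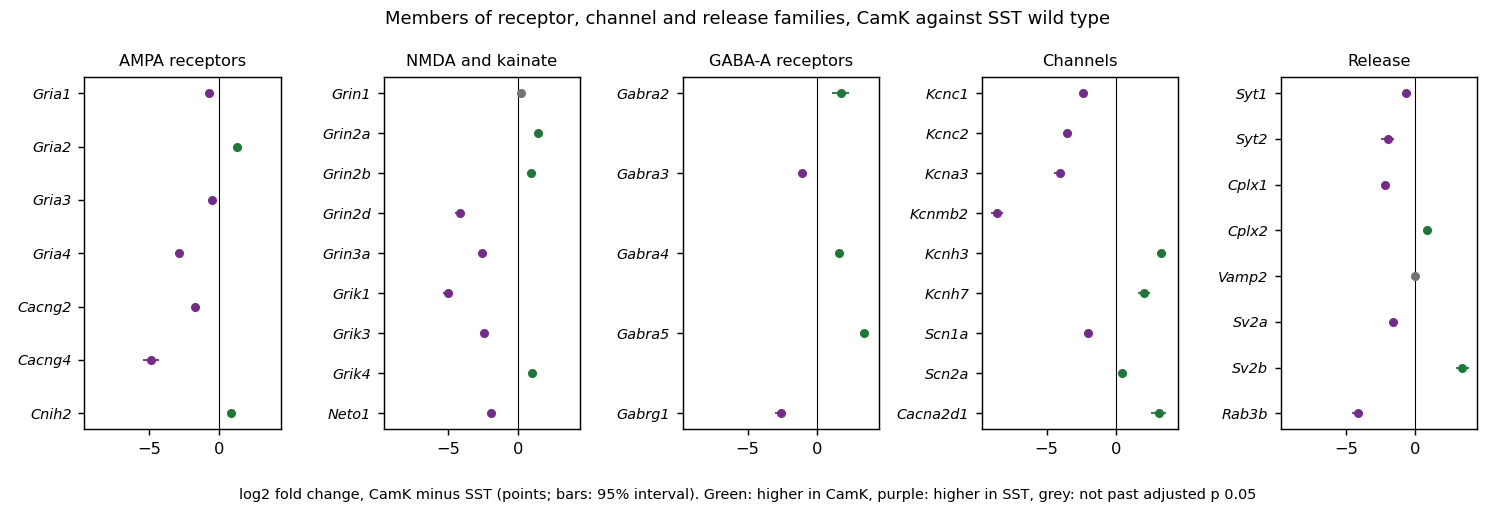
Differences between CamK and SST (log2, CamK minus SST, with 95% intervals) for genes named in the text from 5 families. Green points are higher in CamK, purple points higher in SST and grey points did not pass an adjusted p of 0.05; Gria2 and Gria4, Grin2a and Grin2d, and Sv2b and Rab3b lie on opposite sides.

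Potassium channel genes were more often higher in CamK, 27 of 43, than in SST, 13. The Kv3 genes Kcnc1 (334 ± 48.8 CPM in SST and 65.1 ± 10.1 CPM in CamK) and Kcnc2 (434 ± 49.1 CPM in SST and 37.3 ± 2.45 CPM in CamK), whose fast channels allow rapid firing, were higher in SST, with differences of -2.36 (SE 0.11) and -3.54 (SE 0.08), while their relative Kcnc4 was higher in CamK at 86.3 CPM in CamK and 39.0 CPM in SST. Kcna3 (33.7 CPM in SST and 2.01 CPM in CamK), Kcna6 (185 CPM in SST and 32.7 CPM in CamK) and Dpp10, an auxiliary protein of A-type channels (175 CPM in SST and 40.0 CPM in CamK), were also higher in SST, together with Kcnmb2. The genes higher in CamK were led by Kcnh3, an ether-a-go-go type channel (83.0 ± 8.38 CPM in CamK and 8.57 ± 1.32 CPM in SST), the silent subunit Kcng1 (36.6 ± 3.41 CPM in CamK and 4.97 ± 0.703 CPM in SST) and the A-type channel Kcna4 (40.4 ± 3.01 CPM in CamK and 7.65 ± 1.67 CPM in SST). The A-type channel Kcnd2 had 156 CPM in CamK and 48.6 CPM in SST, whereas Kcnd3 had 54.4 CPM in CamK and 123 CPM in SST and was higher in SST. The inward rectifiers Kcnj3 (166 CPM in CamK and 66.4 CPM in SST), Kcnj6 (38.4 CPM in CamK and 11.2 CPM in SST) and Kcnj9 (108 CPM in CamK and 37.8 CPM in SST), which couple to G proteins, were all more than 2-fold higher in CamK.

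Among 28 sodium, calcium and HCN channel genes, 15 were higher in CamK and 10 in SST. Scn1a, the Nav1.1 channel gene, had 43.8, 43.4, 41.1 and 39.5 CPM in CamK and 133, 185, 183 and 174 CPM in SST (-2.01, SE 0.10, edgeR adjusted p 8.65e-15). Scn2a, the Nav1.2 gene, had 203 CPM in CamK and 148 CPM in SST and was higher in CamK by 0.45 (SE 0.09). The alpha2delta subunits were exchanged, Cacna2d1 being at 116 ± 12.2 CPM in CamK and 13.6 ± 4.36 CPM in SST and Cacna2d2 at 11.1 ± 4.87 CPM in CamK and 91.3 ± 14.5 CPM in SST. Pex5l, the HCN channel partner TRIP8b, was at 604 ± 91.8 CPM in CamK and 82.0 ± 4.39 CPM in SST (2.88, SE 0.12, edgeR adjusted p 3.2e-16). The channel gene Hcn3 itself was higher in SST, at 29.2 CPM in SST and 4.40 CPM in CamK.

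Receptors for neuromodulators numbered 20 higher in CamK and 16 higher in SST of 40. The muscarinic genes separated, Chrm1 being higher in CamK (247 ± 25.1 CPM in CamK and 42.9 ± 8.05 CPM in SST) and Chrm2 in SST (25.3 ± 3.54 CPM in SST and 3.60 ± 0.648 CPM in CamK). The opioid receptor genes Oprd1 and Oprm1 were higher in SST. Oprd1, the delta receptor, had 59.2, 70.1, 71.0 and 50.6 CPM in SST and 4.73, 4.74, 3.98 and 5.24 CPM in CamK. Oprm1, the mu receptor, had 7.92 CPM in SST and 0.296 CPM in CamK. Adora1, the adenosine A1 receptor, had 343 ± 16.9 CPM in CamK and 47.2 ± 5.77 CPM in SST (2.86, SE 0.13, edgeR adjusted p 2.96e-15), and the dopamine receptor Drd5 21.3 CPM in CamK and 1.46 CPM in SST. Drd2 was higher in SST at 9.91 CPM in SST and 0.821 CPM in CamK. Of the receptors for the peptides of the SST cells, Sstr2 (6.63 CPM in CamK and 2.84 CPM in SST), Sstr3 (34.5 CPM in CamK and 8.99 CPM in SST), Sstr4 (22.7 CPM in CamK and 4.66 CPM in SST) and Npy1r (21.5 CPM in CamK and 4.12 CPM in SST) were higher in CamK, and Sstr1 in SST at 25.0 CPM in SST and 9.92 CPM in CamK. Chrna2, the nicotinic subunit that marks dendrite-targeting O-LM interneurons, had 3.15 CPM in SST and 0.0222 CPM in CamK.

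The presynaptic release machinery was split as well, with 16 of 38 genes higher in CamK and 15 in SST. Rab3b, a vesicle GTPase, had 801, 768, 688 and 787 CPM in SST and 28.7, 43.7, 38.6 and 60.1 CPM in CamK (-4.15, SE 0.20, edgeR adjusted p 1.92e-13). The complexins took opposite sides, Cplx1 at 2588 ± 134 CPM in SST and 573 ± 58.3 CPM in CamK and Cplx2 at 2041 ± 129.8 CPM in CamK and 1105 ± 47.0 CPM in SST. The vesicle proteins Sv2a (761 CPM in SST and 253 CPM in CamK) and Sv2b (481 CPM in CamK and 45.7 CPM in SST) did so too, with differences of -1.59 (SE 0.09) and 3.40 (SE 0.22). Syt1, the calcium sensor of fast release, was at 1775 CPM in SST and 1148 CPM in CamK (-0.63, SE 0.08, edgeR adjusted p 2.35e-07), and its fast relative Syt2 at 62.5 CPM in SST and 16.0 CPM in CamK. Doc2b, a sensor of spontaneous release, had 335 ± 37.4 CPM in CamK and 25.8 ± 2.93 CPM in SST. Rims3, an active zone protein, was higher in SST at 461 ± 37.5 CPM in SST and 107 ± 7.88 CPM in CamK. The core fusion genes Snap25 (3293 CPM in CamK and 3445 CPM in SST) and Vamp2 (1908 CPM in CamK and 1867 CPM in SST) and the vesicle gene Syp (1153 CPM in CamK and 1137 CPM in SST) did not pass. Their 95% intervals of the difference were -0.22 to 0.09, -0.13 to 0.19 and -0.17 to 0.22.

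Of 50 synaptic adhesion genes, 21 were higher in CamK, 11 in SST and 18 did not pass; with the non-neuronal covariate, 6 were higher in SST. More than 2-fold differences numbered 5 toward CamK and 2 toward SST. Elfn1, the postsynaptic protein that sets facilitating input onto somatostatin cells, had 278, 256, 261 and 212 CPM in SST and 8.75, 8.13, 5.68 and 8.68 CPM in CamK (-5.01, SE 0.16, edgeR adjusted p 1.8e-17). The secreted cerebellins separated by member, Cbln1 (18.4 ± 3.66 CPM in CamK and 1.24 ± 0.198 CPM in SST) and Cbln2 (6.40 ± 1.10 CPM in CamK and 1.66 ± 0.184 CPM in SST) being higher in CamK and Cbln4 (133 ± 21.7 CPM in SST and 25.6 ± 8.56 CPM in CamK) in SST. The neurexin genes Nrxn2 and Nrxn3 differed by -0.49 (SE 0.10) and -0.99 (SE 0.10). Nlgn1, a ligand of neurexins at excitatory synapses, was at 63.0 CPM in CamK and 36.1 CPM in SST. Nlgn2, its relative at inhibitory synapses, was at 228 CPM in CamK and 245 CPM in SST and did not pass.

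Matrix genes were more often higher in SST, 9 of 14 against 3, and 5 with the non-neuronal covariate. Reln, the secreted glycoprotein reelin, had 215, 297, 291 and 301 CPM in SST and 7.02, 18.5, 3.05 and 6.33 CPM in CamK (-4.98, SE 0.43, edgeR adjusted p 1.07e-08). Hapln1, a link protein of perineuronal nets, had 33.6 ± 3.97 CPM in SST and 0.376 ± 0.126 CPM in CamK (-6.48, SE 0.20, edgeR adjusted p 2.5e-18). The net core protein Acan was at 3.63 CPM in SST and 0.572 CPM in CamK, and the lectican Ncan was higher in CamK at 89.8 CPM in CamK and 50.3 CPM in SST.

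Splicing regulators of neurons, the protein class of SLM2, were 12 of 26 higher in CamK and 9 in SST. Elavl2 was the most SST-directed at 344 ± 14.6 CPM in SST and 54.9 ± 2.83 CPM in CamK (-2.65, SE 0.10, edgeR adjusted p 1.48e-16). Celf5 (397 CPM in CamK and 97.5 CPM in SST), Rbfox3, the gene of the neuronal marker NeuN (479 CPM in CamK and 137 CPM in SST), and Celf3 (177 CPM in CamK and 59.3 CPM in SST) led in CamK. Khdrbs3 stood at 367, 356, 413 and 356 CPM in CamK and 134, 124, 123 and 139.8 CPM in SST, without overlap. Its relatives Khdrbs1 (-0.38, SE 0.09, edgeR adjusted p 0.00043) and Khdrbs2 (0.39, SE 0.12, edgeR adjusted p 0.00775) differed by less. The directions were opposite, but with the non-neuronal covariate Khdrbs2 was at -0.062 and not past the test (edgeR adjusted p 0.849). Qk, a splicing regulator of glia, was higher in SST at 75.4 CPM in SST and 30.4 CPM in CamK, as were the oligodendrocyte sums given above. The part of glial RNA in its level was not tested.

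Immediate early genes were higher in CamK for 14 of 18 and higher in SST for 0 (1 without SST replicate 3). In CamK 13 were higher by more than 2-fold (list median 2.04). Nr4a2, an orphan nuclear receptor, had 144, 139, 109 and 105 CPM in CamK and 10.5, 10.3, 7.08 and 8.94 CPM in SST (3.75, SE 0.20, edgeR adjusted p 4.18e-13). Egr3 had 104 ± 9.81 CPM in CamK and 10.4 ± 3.03 CPM in SST, Arc, the regulator of AMPA receptor traffic, 149 ± 47.2 CPM in CamK and 25.4 ± 8.92 CPM in SST, and Egr1 284 ± 64.7 CPM in CamK and 60.7 ± 29.0 CPM in SST. Fos was the exception in sign, at 17.6, 15.6, 12.4 and 9.09 CPM in CamK and 59.7, 29.1, 6.51 and 30.1 CPM in SST; the libraries overlapped and the difference did not pass (-1.20, SE 0.54, edgeR adjusted p 0.0653), except without SST replicate 3 (-1.54). Bdnf, an activity-regulated neurotrophin, was also higher in CamK, at 53.3, 55.8, 61.4 and 51.7 CPM against 3.34, 5.23, 3.91 and 3.63 CPM (3.79, SE 0.21, edgeR adjusted p 7.65e-13). Other trophic genes were higher in SST: the insulin-like growth factor gene Igf1 had 22.0 ± 2.33 CPM in SST and 0.572 ± 0.154 CPM in CamK and Erbb4, the neuregulin receptor of interneurons, 120.5 ± 32.4 CPM in SST and 2.69 ± 1.07 CPM in CamK. Of the whole trophic list 6 of 20 were higher in CamK and 9 in SST.

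Of 80 cytosolic ribosomal protein genes, 31 were higher in CamK and 0 in SST (1 under relative log expression scaling), none by more than 2-fold, with a median of 0.16. The largest difference among those past the test was that of Rps14, at 120.1 CPM in CamK and 76.1 CPM in SST. Many of these genes have near-identical pseudogenes, and their counts are uncertain where reads match both. Nuclear-encoded respiratory chain genes went slightly the other way, 32 of 81 higher in SST and 8 in CamK (5 without CamK replicate 5 and 4 without SST replicate 3), with a median of -0.11. With the non-neuronal covariate, 10 ribosomal protein genes were higher in CamK, and 18 respiratory chain genes were higher in SST and 0 in CamK. The test for more than 2-fold was passed by 3 respiratory chain genes in SST and 0 in CamK, the former all of cytochrome c oxidase. Cox6a2 was at 16.1, 23.4, 17.2 and 17.0 CPM in SST and 0.0770, 0.188, 0.0565 and 0.0219 CPM in CamK (-7.72, SE 0.30, edgeR adjusted p 1.98e-16). Cox6b2 (0.387 CPM in SST and 0.0441 CPM in CamK) and Cox8b (0.226 CPM in SST and 0.00552 CPM in CamK) were below 1 CPM in both. Of the 13 mitochondrially encoded protein genes, 8 passed the filter and 6 were higher in SST, with sums of 70.6 to 163 CPM against 20.6 to 56.7 CPM. Without CamK replicate 4 or CamK replicate 5 the count in SST was 0, and without SST replicate 2 it was 3. With the non-neuronal covariate this direction turned, 6 being higher in CamK and 0 in SST. At the other end, the 95% interval of the difference lay within -0.25 to 0.25 for 1016 of 15302 protein-coding genes. Those with the highest CPM, besides Snap25, Vamp2 and Syp, were the chaperone Hsp90ab1 (2671 CPM in CamK and 2567 CPM in SST), the polyubiquitin gene Ubb (1189 CPM in CamK and 1271 CPM in SST) and the glycolytic enzyme Tpi1 (1109 CPM in CamK and 1180.3 CPM in SST).

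Long noncoding RNAs also differed, and some of them overlap Dlx genes. In CamK the strongest were 9130024F11Rik (13.2 ± 3.31 CPM in CamK and 0.260 ± 0.127 CPM in SST), 4921539H07Rik (40.9 CPM in CamK and 1.51 CPM in SST) and Gm34583 (18.6 CPM in CamK and 0.723 CPM in SST). In SST they were Dlx1as (33.2 ± 2.81 CPM in SST and 0.409 ± 0.343 CPM in CamK, chromosome 2 from 71516454 to 71537891 on the minus strand), antisense to Dlx1, 2610028E06Rik (6.34 CPM in SST and 0.0800 CPM in CamK) and Dlx6os1 (69.0 CPM in SST and 1.12 CPM in CamK), which overlaps Dlx6. The sources used here do not state whether the counting used strand, so reads of these RNAs and of the coding genes they overlap cannot be told apart.

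The same contrast was then computed in the libraries labelled cKO, 3 of CamK and 4 of SST, whose CPM the wild-type differences do not use; both contrasts share 1 estimate of spread. At an adjusted p of 0.05, edgeR called 10608 genes (56.4%). More than 2-fold differences numbered 3123 there (16.6%), 1337 higher in CamK (7.1%) and 1786 in SST (9.49%). Of these, 2717 were shared with the wild-type calls in the same direction, 77.6% of the wild-type and 87.0% of the cKO calls, and 0 were called in opposite directions. All 18 top genes named above passed in the cKO libraries too, with differences such as 5.21 for Slc17a6, 4.02 for Cck, -9.34 for Crhbp and -9.25 for Npy. For the difference between the wild-type and cKO contrasts, edgeR called 0 genes, with 1477 below 0.05 before adjustment, limma-voom 1 and DESeq2 14.

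The Grik libraries set these CamK levels beside a second pyramidal population. The test of CamK against Grik was passed by 7912 genes (42.0%). Wfs1 in Grik was at 18.9 to 29.6 CPM, within its SST range, and its CamK minus Grik difference was 3.85 (SE 0.33, edgeR adjusted p 2.6e-08). Pou3f1 (3.96 CPM in Grik, 5.26, SE 0.26, edgeR adjusted p 1.91e-12) and Slc17a6 (2.79 CPM, 3.48, SE 0.37, edgeR adjusted p 3.2e-07) likewise had low levels in Grik. Pex5l was at 107 CPM and Kcnh7, an ether-a-go-go related channel that was higher in CamK than SST at 67.1 CPM in CamK and 16.6 CPM in SST, at 4.37 CPM. Others were high in both pyramidal populations: in Grik, Neurod6 was at 761 CPM, Tbr1 at 68.3 CPM, Cck at 299 CPM, Nrgn at 2042 CPM and Gabra5 at 263 CPM. Of the genes higher in SST, Grik had 2.07 CPM for Npy, 0.883 CPM for Lhx6, 0.569 CPM for Crhbp and 52.4 CPM for Gad1. Other genes higher in SST were well above CamK in Grik: Elavl2 was at 229 CPM there against 54.9 CPM in CamK, and Calb2, calretinin, at 331 CPM in Grik, 12.9 CPM in CamK and 38.0 CPM in SST. CamK minus SST and Grik minus SST share the SST libraries, so only the CamK against Grik test compares the pyramidal populations.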

How the data were processed

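RNA sequencing libraries of CamK, Grik and SST populations were deposited as 1 table of raw read counts per gene, which the authors made with Trimmomatic and STAR on GRCm38, per the submitters' processing notes. Tool versions, the annotation release and the strand setting are not given in the sources used here. Reads that named no gene (4 summary rows, 12.4 to 17.0% of reads in the 8 libraries) were left out. Of 45706 gene identifiers, 45143 matched GENCODE M21, which gave symbols, biotypes, exon lengths and positions. Promoter sequences are from RefSeq.

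All 23 libraries in 6 groups were fitted with edgeR 4.0.16 in R 4.3.3 (TMM scaling, filterByExpr, robust quasi-likelihood, 17 residual degrees of freedom, biological coefficient of variation 16.3%). The contrast was CamK minus SST in wild type, two-sided, with Benjamini-Hochberg adjustment over 18823 genes, and glmTreat tested against 2-fold. Every adjusted p is from edgeR unless another tool is named. The standard error is the size of the log2 fold change divided by the square root of F. On simulated counts with 200 changed genes (3 draws of 18511 to 18515 genes of this contrast), the test recovered 67.6 to 79.7% of 1.5-fold, 88.2 to 95.7% of 2-fold and 95.7 to 100% of 4-fold changes, and 3.37 to 8.08% of calls were false. Libraries of a group differed by more than sampling noise: no pair was equal within it (chi-square per degree of freedom of at least 23.9).

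Gene lists and members were chosen with earlier results of these data known. Named are Slc17a7, Wfs1, Gad1 and Sst, and in each direction the 10 protein-coding genes with the largest difference past the 2-fold test (mean of at least 10 CPM, no overlap), the 5 with the highest CPM and the 3 strongest noncoding genes (at least 5 CPM). Up to 4 genes a list and direction (at least 5 CPM) and 6 abundant genes with intervals within -0.25 to 0.25 follow. Other list members, Xist, Ddx3y and Gm42418 were named after their values were seen. Some genes that this rule names are not reported here. Alternatives were relative log expression scaling, other filters, the 8 libraries alone, thinning, DESeq2 1.42.0, limma-voom (limma 3.58.1), covariates for non-neuronal and sex-linked genes, a replicate block and leaving out each library. DESeq2 and limma-voom for the difference between wild-type and cKO contrasts were added after seeing the data. The main fit used no pairing. Only the replicate block treated equal replicate numbers in the titles as belonging together. Deviations from the group means of same-numbered CamK and SST libraries correlated at 0.10 (number 2), 0.12 (number 3) and 0.10 (number 5). Libraries of different numbers gave -0.18 (CamK 5 with SST 3) to 0.16 (CamK 2 with SST 3). These correlations therefore do not show whether the numbers mark pairs.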

Additional observations from a re-analysis of the deposited data

Results flagged for a closer look

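In a group of 4 libraries, the highest or lowest level of a named gene was marked when its gap to the nearest library was a larger share of the whole range than Dixon's 95% critical value for 4 samples. This held for 36 of 466 groups (7.73%), and chance alone marks about 5%.

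SST replicate 5 had the most marks. It lay above the other SST libraries for Bcl11b (36.5 CPM), Calm2 (1813 CPM), Coch (16.4 CPM), Cplx3 (2.50 CPM), Pdyn (16.1 CPM), Slc17a6 (1.31 CPM), Sstr1 (30.0 CPM), Wfs1 (41.3 CPM), Xist (25.7 CPM) and Zwint (2873 CPM). It lay below them for Cacng2 (107 CPM), Cux1 (82.0 CPM) and Stk32a (46.2 CPM). SST replicate 2 was high for Cox6a2 (23.4 CPM), Fezf2 (4.43 CPM), Grp (2.66 CPM), Slc17a7 (121 CPM) and Sv2b (70.2 CPM) and low for Dlx2 (39.9 CPM). SST replicate 1 was high for Camk1 (96.8 CPM) and Grm2 (7.06 CPM) and low for Erbb4 (72.3 CPM), Hapln1 (27.7 CPM) and Reln (215 CPM). SST replicate 3 was low for Tpi1 (1126 CPM).

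Among CamK libraries, replicate 5 was low for Baiap2 (423 CPM), Ddx3y (0.0219 CPM), Grin2b (539.9 CPM) and Homer1 (179 CPM) and high for Xist (3.04 CPM). Replicate 4 was high for Kcna4 (44.9 CPM) and Zbtb18 (926 CPM) and low for Sstr2 (5.59 CPM). Replicate 3 was high for Coch (2.48 CPM) and Grm2 (73.2 CPM) and low for Slc1a1 (98.6 CPM).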

How the results depend on the processing

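Apart from the non-neuronal covariate, the alternatives gave 9701 to 11521 genes at an adjusted p of 0.05 (4779 to 5655 higher in CamK, 4922 to 5913 in SST) and 2689 to 3515 for more than 2-fold (1224 to 1582 in CamK, 1465 to 1944 in SST). Leaving out 1 library gave 10671 to 10985 and 3246 to 3464 genes, with 5265 to 5426 and 1497 to 1576 higher in CamK and 5311 to 5559 and 1723 to 1923 in SST. With the replicate block the counts were 11148 and 3475; among named genes it ended the call of Mpped1 (0.53) and gave one to Grin1 (0.26) and Penk (0.57), and it changed no other call. The non-neuronal covariate gave 7093 genes (3315 higher in SST) and 2246 for more than 2-fold (962 in SST). It turned the sign of Khdrbs2 (-0.062), Hsp90ab1 (-0.075), Vamp2 (-0.16), Ttr (0.29), Ddx3y (0.65), Slc6a13 (1.01) and Vip (1.91). Over the fits without 1 library, values with a change of sign ranged from -0.055 to 0.084 for Syp, -0.024 to 0.084 for Vamp2 and -4.91 to 1.93 for Xist, the last without SST replicate 5. For the difference between wild-type and cKO contrasts, limma-voom called 1 gene and DESeq2 14. The cause of these changes was not tested. Of 233 named genes, 206 kept direction and call under every setting in which they were fitted, 12 lost the call without a change of sign, 7 gained it and 9 changed sign under at least 1. Of 70 list counts, 49 stayed within 1.5-fold throughout, and leaving out 1 library moved 8. Genes with levels near 0 in CamK, such as Gna14 and Cox6a2, have a fold change set partly by the few reads there, so its size is less certain than its direction.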

Other observations

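Further members of the lists differed in ways the report did not give. Synpr, the vesicle protein synaptoporin, had 228, 259, 236 and 319 CPM in SST and 68.4, 67.1, 37.5 and 59.4 CPM in CamK, without overlap (-2.17, SE 0.19, edgeR adjusted p 2.3e-09). Cplx3, another complexin, was higher in CamK at 10.8 ± 2.31 CPM in CamK and 0.968 ± 1.03 CPM in SST, and so was the calcium channel gene Cacna1e at 199 ± 36.6 CPM in CamK and 47.9 ± 7.70 CPM in SST. Kcns3, a silent potassium channel subunit, was higher in SST at 47.8 ± 4.76 CPM in SST and 7.37 ± 1.09 CPM in CamK. Vamp1, a vesicle fusion protein, was also higher in SST at 395 CPM in SST and 138 CPM in CamK. Celf6, a splicing regulator, was higher in SST at 89.6 CPM in SST and 35.9 CPM in CamK, opposite in sign to Celf5 and Celf3. Coch, a secreted protein used as a CA3 marker, was higher in SST at 11.1 CPM in SST and 2.03 CPM in CamK, opposite to most of its list.

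Some levels set CamK apart from Grik. Mpped1, a metallophosphoesterase gene, was at 531 ± 67.0 CPM in CamK and 334 ± 13.3 CPM in SST and in Grik at 25.5 CPM, with a CamK minus Grik difference of 4.38 (SE 0.26, edgeR adjusted p 6.91e-11); against SST its call was lost with the replicate block and with the non-neuronal covariate. Fibcd1, a membrane protein used as a CA1 marker, was at 242 CPM in CamK and 36.5 CPM in SST and in Grik at 25.2 CPM (3.26, SE 0.17, edgeR adjusted p 2.02e-12). Elavl2 in Grik was at 229 CPM, between its CamK and SST levels (-2.06, SE 0.10, edgeR adjusted p 6.16e-14).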
